A study of Homo sapiens with 4 samples.

Results

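Imprinted genes are read mainly from the copy inherited from the mother or mainly from that inherited from the father. The choice is marked by DNA methylation laid down in the egg or sperm and kept through cell division, and several of these genes control growth before birth. Here 10 textbook imprinted genes that lie on chromosomes 6, 7, 11 and 15, outside the imprinted domain of chromosome 14, were taken by their symbols from the 32673 genes of the expression table. They are H19, IGF2, KCNQ1OT1, CDKN1C, PEG10, SGCE, MEST, SNRPN, PLAGL1 and GRB10, and each matched 1 row.

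The study compared imatinib-sensitive TF1-BA cells with imatinib-resistant TF1-BAR cells by RNA sequencing, to find transcripts that differ with resistance to this inhibitor of the BCR-ABL kinase. TF1 is a human erythroleukaemia cell line that grows on GM-CSF, TF1-BA cells are TF1 cells that carry BCR-ABL from a retrovirus, and TF1-BAR cells were derived from TF1-BA cells by months of growth in imatinib. Each line gave 2 libraries, both lines were kept in medium with GM-CSF and 10% serum, and the labels give 2 μM imatinib for the culture of TF1-BAR cells alone. The resistant libraries carry the title vector beside the name TF1-BAR. No source used here says if imatinib was still in the medium at RNA extraction, so the resistant state and a direct effect of imatinib cannot be told apart. Each state is represented by 1 cell line, and nothing says that its 2 libraries came from separate cultures, so that p-values measure only the spread between these libraries, which may be technical.

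The values are FPKM, the fragments of a gene scaled to the length of its transcript and to the depth of the library, and they sum the RNA of both parental copies, so the copy of origin is not in them. The libraries held 15465497 to 18042299 mapped fragments. All 14 markers of TF1 cells (such as CD34, KIT, GATA1 and HBG1) were above 0 in the 4 libraries, with a summed level of 659 and 634 FPKM in TF1-BA and 780 and 801 FPKM in TF1-BAR cells. Of 3 T cell markers CD3E and CD2 stayed near 0 in each library, whereas the summed level of the 3 was 19.2 and 20.8 FPKM in TF1-BA and 5.84 and 6.40 FPKM in TF1-BAR cells, nearly all of it CD3D. The part of this difference in the results below was not tested. The summed level of the 2 endothelial markers CDH5 and VWF was 0.797 and 0.703 FPKM in TF1-BA and 3.39 and 3.56 FPKM in TF1-BAR cells, and their part was not tested either. The summed level of epithelial, fibroblast and placental or fetal liver markers was at most 0.442 FPKM in any library, and that of 2 B cell markers 3.11 to 4.46 FPKM.

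The sequences that bear on imprinting at these genes are shown first. H19 and IGF2 are neighbours on chromosome 11, 127642 bp apart, and are known to be kept to opposite parental copies by the insulator protein CTCF, which binds upstream of H19 only where the DNA is unmethylated. The CTCF core motif, the 14 letters in capitals below with 2 of them free to be any base, was searched on both strands of GRCh38 chromosome 11, where it had 21 matches. Of these, 5 lay in the H19 row or within 10 kb upstream of it, spread over 3065 bp and all on the minus strand, the strand of H19 itself. The motif was in 0.0655% of 35116 RefSeq promoter windows of 300 bases genome-wide. The matches upstream of and within H19 are given with 10 further bases on each side, read on the minus strand, with the motif in capitals.
match 1 (chr11:2003009-2003042): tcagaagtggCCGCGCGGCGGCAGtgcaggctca
match 2 (chr11:2002604-2002637): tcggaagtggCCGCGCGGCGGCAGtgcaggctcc
match 3 (chr11:2002203-2002236): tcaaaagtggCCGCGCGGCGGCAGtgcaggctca
match 4 (chr11:2000770-2000803): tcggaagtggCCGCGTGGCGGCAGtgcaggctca
match 5 (chr11:1999958-1999991): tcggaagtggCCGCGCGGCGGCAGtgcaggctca
Matches 4 and 5 lay inside the row of H19. The flanks of the 5 matches were nearly the same, and a match is a stretch of letters and not a measured binding site.

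For H19 and MEST, which changed between the lines, the 5p miRNA that lies in each row is shown from RefSeq on GRCh38.p14, with the seed (bases 2 to 8) in capitals. hsa-miR-675-5p lies within H19 at chr11:1996800-1996822 on the minus strand, and hsa-miR-335-5p lies within MEST at chr7:130496126-130496148 on the plus strand. Their seeds differ, and the mature miRNAs were not measured in these libraries.
hsa-miR-675-5p: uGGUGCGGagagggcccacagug
hsa-miR-335-5p: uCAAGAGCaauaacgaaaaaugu

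Promoter windows of 300 bases around a transcription start were given by RefSeq (GRCh38.p14) for 5 of the 10 genes, with 20 windows in all. The window of H19 and the windows of MEST and PLAGL1 with the most CpG are printed, since these 3 genes changed between the lines. The FPKM do not say which start made the RNA, so the change is not tied to the printed windows. Other starts were also rich in CpG, with 31 at chr6:144064550-144064849 of PLAGL1 and 22 at chr7:130486097-130486396 of MEST. CpG, the site of DNA methylation, is in capitals.
H19 (chr11:2001217-2001516): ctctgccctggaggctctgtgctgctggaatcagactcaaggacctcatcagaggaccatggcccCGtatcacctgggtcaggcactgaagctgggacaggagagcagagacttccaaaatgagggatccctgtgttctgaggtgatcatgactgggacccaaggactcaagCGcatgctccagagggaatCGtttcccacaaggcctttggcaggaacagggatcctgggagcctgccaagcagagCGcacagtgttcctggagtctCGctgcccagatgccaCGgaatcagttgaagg
MEST (chr7:130491835-130492134): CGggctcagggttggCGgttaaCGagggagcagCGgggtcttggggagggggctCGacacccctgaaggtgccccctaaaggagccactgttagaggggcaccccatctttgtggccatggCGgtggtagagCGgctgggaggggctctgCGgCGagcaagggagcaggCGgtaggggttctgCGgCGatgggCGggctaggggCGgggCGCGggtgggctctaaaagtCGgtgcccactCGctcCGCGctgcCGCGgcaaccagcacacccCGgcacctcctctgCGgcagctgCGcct
PLAGL1 (chr6:144008210-144008509): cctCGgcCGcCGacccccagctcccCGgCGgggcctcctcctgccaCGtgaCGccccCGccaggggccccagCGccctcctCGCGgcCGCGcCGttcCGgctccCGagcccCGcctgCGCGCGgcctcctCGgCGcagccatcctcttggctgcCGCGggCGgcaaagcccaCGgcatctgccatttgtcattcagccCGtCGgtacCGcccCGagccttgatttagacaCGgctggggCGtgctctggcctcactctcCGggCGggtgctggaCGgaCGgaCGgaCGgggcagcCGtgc
The H19 window (minus strand) held 6 CpG, the MEST window (plus strand) 25 and the PLAGL1 window (minus strand) 39, against a median of 14 over all promoter windows. The H19 window lies at the outer end of the H19 row. No window was given for a start further inside that row, so the 6 CpG do not describe such a start. The hexamer TGCCGC, bound when methylated by the imprint keeper ZFP57, was looked for on both strands. It was in 16.7% of all promoter windows and in 8 of the 20 windows of these genes, 3 times in the printed MEST window, 2 times in that of PLAGL1 and 0 times in that of H19. Windows of a gene can overlap, as 2 pairs of the MEST windows do, so that a site can count in more than 1 window. The CTCF motif was in 0 of the 20 windows.

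The 10 genes spanned the whole range of expression. In both lines the order of mean FPKM was MEST, PLAGL1, GRB10, H19, CDKN1C, SNRPN, KCNQ1OT1, SGCE, IGF2 and PEG10. MEST stood above 97.5% of the genes of the table by mean FPKM, PLAGL1 above 96.5% and GRB10 above 93.2%. At the other end IGF2 stood above 11.1% and PEG10 above 5.95%. Neighbours in this order whose libraries overlapped were H19 with CDKN1C, SGCE with IGF2 and IGF2 with PEG10 in TF1-BA cells, and MEST with PLAGL1 in TF1-BAR cells.

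**Figure D1:**
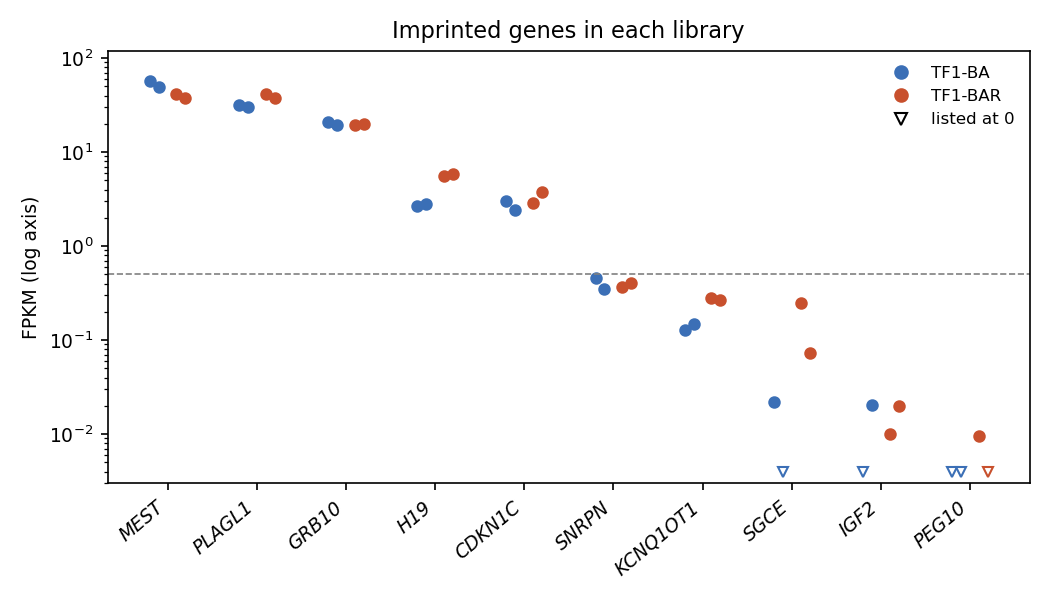
FPKM (log axis) of the 10 imprinted genes, with each point a library of TF1-BA (blue) or TF1-BAR (orange), triangles for libraries listed at 0 and a dashed line at the mean of 0.5 FPKM needed to enter the test. MEST, PLAGL1 and GRB10 lie at 19.5 to 56.8 FPKM in every library, while SGCE, IGF2 and PEG10 lie at or below 0.249 FPKM.

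Expression was tested with limma on log2(FPKM + 0.5) in the 15519 genes whose mean reached 0.5 FPKM, and p-values were adjusted over all of them. Of the 10 genes, 5 entered the test (H19, CDKN1C, MEST, PLAGL1 and GRB10) and 5 were under the filter (IGF2, KCNQ1OT1, PEG10, SGCE and SNRPN). The fold threshold was a log2 change of 1 up or down, and with an adjusted p under 0.05 as well 0 of the 5 passed by limma, against 4.75% of all genes tested. An adjusted p under 0.05 was reached by 3 of the 5, with H19 and PLAGL1 higher and MEST lower in TF1-BAR cells, against 26.9% of all genes tested. An unadjusted p under 0.05 was also reached by 3 of the 5, against 42.2% of all genes tested. The libraries of both lines did not overlap for 3 of the 5, against 69.3% of all genes tested, and 2 of the 5 lay clear on the higher side in TF1-BAR cells, against 40.9%. With no filter on low values 1 of the 10, H19, had an adjusted p under 0.05, against 4.69% of 30853 genes. The median log2 fold change of the 5 was 0.25, against 0.07 over all genes tested. Counting the fragments behind the FPKM and testing them by limma voom over genes with a mean of 10 or more fragments took in KCNQ1OT1 and SNRPN as well. With it 4 of 7 had an adjusted p under 0.05, against 40.4% of 15786 genes, and 1 of 7, H19, was past both thresholds, against 9.61%.

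**Figure D2:**
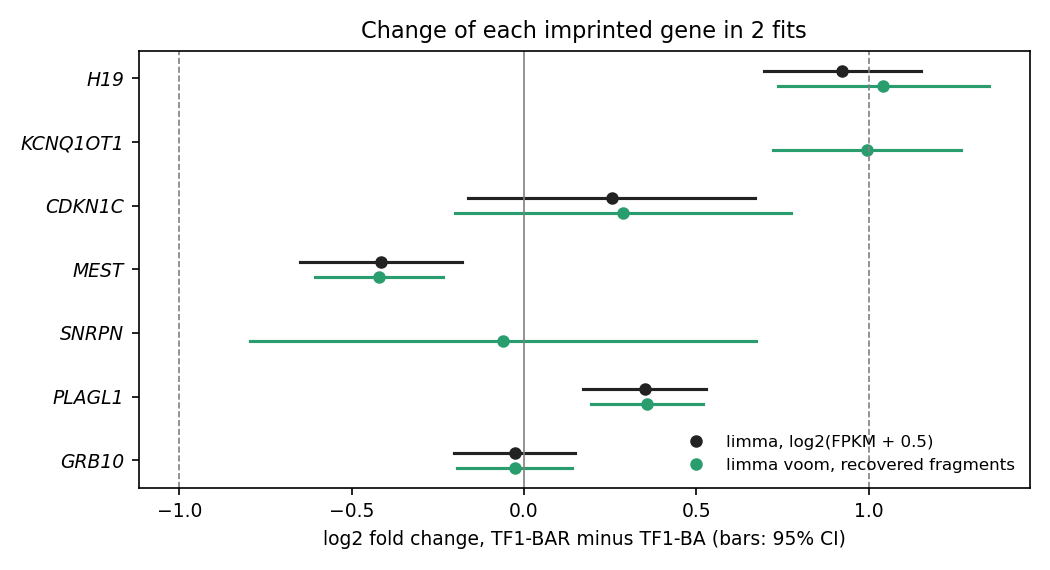
Log2 fold change (TF1-BAR minus TF1-BA) of the genes that could be tested, with 95% confidence intervals, by limma on log2(FPKM + 0.5) in black and by limma voom on recovered fragments in green, and dashed lines at an absolute change of 1. H19 and KCNQ1OT1 lie to the right near 1, PLAGL1 at 0.35, MEST to the left at -0.42, and the intervals of CDKN1C, SNRPN and GRB10 cross 0.

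H19, a long non-coding RNA made from the maternal copy and abundant in the embryo, rose in TF1-BAR cells. H19 (ENSG00000130600) is at chr11:1995163-2001470 on the minus strand of GRCh38. Its level was 2.69 and 2.84 FPKM in TF1-BA and 5.52 and 5.86 FPKM in TF1-BAR libraries, from 137, 124, 246 and 266 fragments. Both TF1-BAR libraries lay above both TF1-BA libraries, and replicates of a line stood close together. The mean went from 2.76 ± 0.106 to 5.69 ± 0.235 FPKM (SD, n = 2), a ratio of 2.06. The log2 fold change was 0.92 with an SE of 0.0882 and a 95% interval of 0.70 to 1.15 (limma, adjusted p = 0.00623). By limma voom on fragments it was 1.04 with an SE of 0.143 (limma voom, adjusted p = 7.25e-05), so that H19 lay just under the fold threshold in the former fit and just over it in the latter. Without TF1-BA replicate 1 the log2 fold change was 0.89 (limma, adjusted p = 0.0673), and without TF1-BA replicate 2 it was 0.96 (limma, adjusted p = 0.0639).

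IGF2, a growth factor made from the paternal copy that acts through the receptor IGF1R, was at the limit of detection in both lines. IGF2 (ENSG00000167244, chr11:2129112-2141238, minus strand) was read by 0 and 2 fragments in TF1-BA and by 1 and 2 in TF1-BAR libraries. These are levels of 0, 0.0207, 0.0101 and 0.0199 FPKM, all under the level of 3 fragments, which was 0.0266 to 0.0310 FPKM by library. A difference in IGF2 was therefore not detectable at this depth, and no fold is given. The H19 and IGF2 rows thus differed in level by a wide margin, with H19 at 2.69 FPKM or more and IGF2 at 0.0207 FPKM or less in each library.

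KCNQ1OT1, a long antisense RNA made from the paternal copy that silences genes around it in cis, had more fragments in TF1-BAR cells. KCNQ1OT1 (ENSG00000269821) is at chr11:2608328-2699994 on the minus strand, and its length in the table is its whole span of 91667 bases. That length gave a low FPKM, 0.128 and 0.148 in TF1-BA and 0.280 and 0.268 in TF1-BAR libraries, so that the row did not enter the test. In fragments it was well covered, with 212 and 210 in TF1-BA and 404 and 395 in TF1-BAR libraries, more on average than 75.8% of genes. The libraries of the lines did not overlap, and the ratio of fragments per library size was 1.99 (exact 95% interval 1.77 to 2.25, counting error only). By limma voom its log2 fold change was 0.995, just under the fold threshold, with an SE of 0.127 and a 95% interval of 0.72 to 1.27 (limma voom, adjusted p = 3.82e-05). With no filter on the FPKM the change was 0.28 on the log2(FPKM + 0.5) scale, where the pseudocount of 0.5 FPKM is larger than the level itself (limma, adjusted p = 0.180).

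KCNQ1OT1 lies inside KCNQ1, a potassium channel gene on the plus strand. The sources used here do not say that strand was kept, so unspliced KCNQ1 RNA and KCNQ1OT1 cannot be told apart. KCNQ1 was at 0.712 and 0.928 FPKM in TF1-BA and 1.74 and 1.27 FPKM in TF1-BAR libraries. Its groups did not overlap either, with a log2 fold change of 0.60 (limma, adjusted p = 0.0748).

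CDKN1C, an inhibitor of cyclin-dependent kinases made from the maternal copy and a known target of KCNQ1OT1 silencing, lies 183219 bp from KCNQ1OT1. CDKN1C (ENSG00000129757, chr11:2883213-2885881, minus strand) was at 3.001 and 2.40 FPKM in TF1-BA and 2.90 and 3.75 FPKM in TF1-BAR libraries. The lower TF1-BAR library lay between the TF1-BA libraries, so the lines overlapped. The means were 2.70 ± 0.424 and 3.32 ± 0.607 FPKM (SD, n = 2), from at least 48 fragments a library. The log2 fold change was 0.25 with a 95% interval of -0.16 to 0.67 (limma, adjusted p = 0.289).

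Of the other genes of the same domain listed, 6 of 10 names had a row and 3 were tested. Of KCNQ1, PHLDA2 and SLC22A18, 0 had an adjusted p under 0.05 by limma (26.9% of all genes), with 2 of 3 at an unadjusted p under 0.05 (42.2% of all genes) and a median log2 fold change of -0.10. Limma voom took in SLC22A18AS as well, and 2 of the 4 passed (40.4% of all genes), KCNQ1 higher (adjusted p = 0.00820) and SLC22A18 lower (adjusted p = 0.0103). PHLDA2, a growth restrainer of the placenta made from the maternal copy, was at 5.57 and 5.28 FPKM in TF1-BA and 4.32 and 5.86 FPKM in TF1-BAR libraries. Its log2 fold change was -0.10 (limma, adjusted p = 0.659), with overlapping lines.

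PEG10 and SGCE start 116 bp apart on chromosome 7 and are read in opposite directions, both from the paternal copy. PEG10, a protein derived from a retrotransposon that the placenta needs, was close to absent from the reads. PEG10 (ENSG00000242265, chr7:94656325-94669695, plus strand) had 1 fragment in TF1-BAR replicate 1 and 0 in the other 3 libraries, where 3 fragments would be 0.0249 to 0.0290 FPKM. SGCE, the epsilon member of the sarcoglycans of the cell membrane, was also low. SGCE (ENSG00000127990, chr7:94585230-94656209, minus strand) was at 0.0218 and 0 FPKM in TF1-BA and 0.249 and 0.0733 FPKM in TF1-BAR libraries. These are 1, 0, 10 and 3 fragments, with both TF1-BAR libraries above both TF1-BA libraries. The ratio per library size was 13.7, with an exact 95% interval of 2.06 to 582 that covers counting error only, and the change had an adjusted p of 0.273 by limma without the filter.

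MEST, an enzyme of the alpha/beta hydrolase fold made from the paternal copy in mesodermal tissue, was the most abundant of the 10 genes and fell in TF1-BAR cells. MEST (ENSG00000106484, chr7:130486171-130506296, plus strand) was at 56.8 and 49.7 FPKM in TF1-BA and 41.4 and 38.1 FPKM in TF1-BAR libraries. Both TF1-BAR libraries lay below both TF1-BA libraries, on 2837 to 4750 fragments each. The means were 53.3 ± 5.08 and 39.7 ± 2.30 FPKM (SD, n = 2), a ratio of 0.746. The log2 fold change was -0.42 with an SE of 0.0910 and a 95% interval of -0.65 to -0.18 (limma, adjusted p = 0.0314). By limma voom it was -0.42 (adjusted p = 0.00168). Leaving out any 1 of the 4 libraries kept the direction, with a change of -0.51 to -0.32, and took the adjusted p to between 0.0627 and 0.179 (limma). COPG2, a coat protein gene beside MEST, was at 16.1 and 16.5 FPKM in TF1-BA and 12.9 and 15.7 FPKM in TF1-BAR libraries, with a log2 fold change of -0.18 (limma, adjusted p = 0.262).

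PLAGL1, a zinc finger transcription factor that restrains growth and is made from the paternal copy, rose by a small amount. PLAGL1 (ENSG00000118495, chr6:143940300-144064599, minus strand) was at 31.4 and 30.5 FPKM in TF1-BA and 41.2 and 38.1 FPKM in TF1-BAR libraries. Both TF1-BAR libraries lay above both TF1-BA libraries, on 4117 to 5667 fragments each. The means were 31.0 ± 0.643 and 39.7 ± 2.22 FPKM (SD, n = 2), a ratio of 1.28. The log2 fold change was 0.35 with an SE of 0.0693 and a 95% interval of 0.17 to 0.53 (limma, adjusted p = 0.0253), and by limma voom 0.36 (adjusted p = 0.00209). Leaving out any 1 of the 4 libraries kept the direction, with a change of 0.29 to 0.41, and took the adjusted p to between 0.0507 and 0.168 (limma). HYMAI, a non-coding RNA that shares the PLAGL1 locus, had 12 and 4 fragments in TF1-BA and 12 and 6 in TF1-BAR libraries. Those lines overlapped, and the row was under the filter.

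GRB10, an adaptor that binds and restrains the insulin and IGF1 receptors, kept a like level in all 4 libraries. GRB10 (ENSG00000106070, chr7:50590063-50793462, minus strand) was at 20.8 and 19.5 FPKM in TF1-BA and 19.7 and 19.8 FPKM in TF1-BAR libraries. The TF1-BAR values lay between the TF1-BA values. The log2 fold change was -0.03 with a 95% interval of -0.20 to 0.15 (limma, adjusted p = 0.796). Its sign turned when FPKM were rescaled to TPM, with a change of 0.04, and without TF1-BA replicate 1, with 0.02.

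SNRPN, a protein of the splicing machinery made from the paternal copy in the region of Prader-Willi syndrome, was low in both lines. SNRPN (ENSG00000128739, chr15:24823637-24978723, plus strand) was at 0.454 and 0.353 FPKM in TF1-BA and 0.368 and 0.404 FPKM in TF1-BAR libraries. These are 24, 16, 17 and 19 fragments, and the lines overlapped. By limma voom its log2 fold change was -0.06 with a 95% interval of -0.80 to 0.67 (adjusted p = 0.905), too wide to show a change under that size. SNURF, read from the same transcript, had 3, 0, 3 and 1 fragments, and fragments of the shared exons may be split between the rows in ways that the table does not show.

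**Figure D3:**
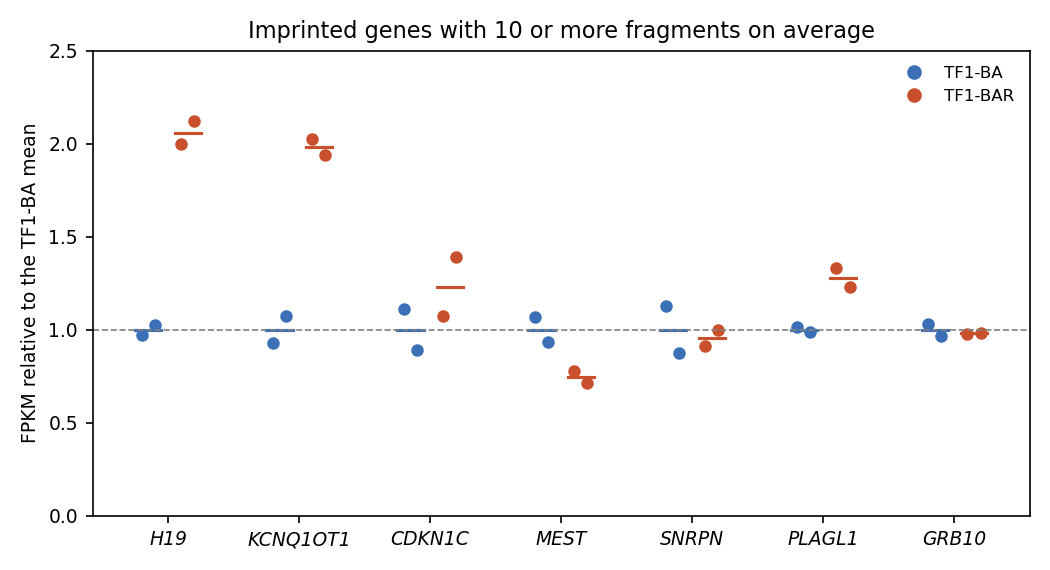
FPKM of 7 imprinted genes relative to the mean of the TF1-BA libraries (linear axis from 0), with each point a library and each bar a mean of 2. H19 and KCNQ1OT1 stand near 2 in both TF1-BAR libraries, PLAGL1 at 1.28 and MEST at 0.746 on average, and the libraries of CDKN1C, SNRPN and GRB10 overlap.

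Other imprinted genes and their neighbours were read from lists by location. On chromosome 7, 6 of 13 names near PEG10, SGCE and MEST had a row and 3 were tested, with 0 at an adjusted p under 0.05 by limma (26.9% of all genes), 0 at an unadjusted p under 0.05 (42.2%) and 0 by limma voom (40.4%), and changes of -0.18 to 0.16. Around SNRPN, in a list that holds CYFIP1, NIPA1, NIPA2 and TUBGCP5, neighbours known to be read from both copies, 11 of 17 names had a row and 9 were tested, with 1 lower and 0 higher at an adjusted p under 0.05 by limma (26.9% of all genes) and a median change of -0.0016. An unadjusted p under 0.05 was reached by 3 of the 9 (42.2% of all genes). By limma voom 3 of 9 passed, a share below the 40.4% of all genes, with UBE3A lower, MKRN3 higher (adjusted p = 0.00701) and TUBGCP5 higher (adjusted p = 0.0368). UBE3A, a ubiquitin ligase made from the maternal copy in neurons, was at 6.98 and 6.48 FPKM in TF1-BA and 4.61 and 3.71 FPKM in TF1-BAR libraries, a log2 fold change of -0.64 (limma, adjusted p = 0.0231). NDN is not analysed here. Beside PLAGL1 and GRB10, 3 names had a row and 0 were tested.

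Of 47 further names listed as imprinted, DNMT1 among them, 38 had a row and 28 were tested. The values do not hold the copy of origin, so imprinting of these genes in TF1 cells was not tested. By adjusted p 11 were higher and 1 was lower, or 12 of 28 against 26.9% of all genes, with a median log2 fold change of 0.14. By limma voom 13 of 30 passed, against 40.4%. By limma on FPKM 3 of the 28 passed both thresholds, all higher, against 4.75% of all genes tested. LIN28B, an RNA-binding protein that blocks the maturation of let-7, was at 4.59 and 4.01 FPKM in TF1-BA and 20.2 and 17.5 FPKM in TF1-BAR libraries, a log2 fold change of 2.01 (limma, adjusted p = 0.00289). ZNF331, a zinc finger gene on chromosome 19, was at 4.25 and 4.27 against 10.8 and 11.6 FPKM, a log2 fold change of 1.30 (limma, adjusted p = 0.00337). NNAT, a small membrane protein of the developing brain on chromosome 20, was at 0.385 and 0.399 against 1.96 and 1.44 FPKM, a log2 fold change of 1.29 with the pseudocount above the TF1-BA level (limma, adjusted p = 0.0123) and 2.04 by limma voom (adjusted p = 0.000789). In each of these 3 genes both TF1-BAR libraries lay above both TF1-BA libraries.

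Read together, the lists held 43 tested genes, which are imprinted genes and neighbours (the 4 above among them) and DNMT1, which is also listed with the methylation factors below. Of the 43, 11 were higher and 2 lower by adjusted p, or 30.2% against 26.9% of all genes. A split by chromosome was made after the values were seen. The 8 on chromosome 20 (BLCAP, GNAS, GNAS-AS1, HM13, L3MBTL1, MCTS2P, NNAT and SGK2) were all higher at an adjusted p under 0.05, with a median of 0.73. GDAP1L1, also listed and on chromosome 20, was under the filter and went the other way. It was at 0.328 and 0.554 FPKM in TF1-BA and 0.113 and 0.294 FPKM in TF1-BAR libraries, a change of -1.15 by limma voom (adjusted p = 0.0591). The median of all 440 tested genes of chromosome 20 was 0.39, the highest of the autosomes. Some of the 8 overlap a neighbour in position (NNAT within BLCAP, MCTS2P within HM13, GNAS-AS1 with GNAS). Reads shared between such rows were not measured. With the median of chromosome 20 taken off, 3 of the 8 (BLCAP, MCTS2P and NNAT) had an adjusted p under 0.05 by limma, and NNAT was at 0.90 (limma, adjusted p = 0.0347), under the fold threshold. In that setting, with each gene's own chromosome median taken off, 3573 of all 15519 tested genes had an adjusted p under 0.05. Of the 35 elsewhere 3 were higher and 2 lower by adjusted p, or 14.3%, with a median of -0.03, and with the median of the own chromosome taken off 3 of these 5 (LIN28B, ZNF331 and UBE3A) kept an adjusted p under 0.05 by limma. The medians of the chromosomes that hold the 10 genes were between 0.06 and 0.11, and taking off the median of a gene's own chromosome left H19 at 0.815 (limma, adjusted p = 0.00850), MEST at -0.50 (limma, adjusted p = 0.0237) and PLAGL1 at 0.30 (limma, adjusted p = 0.0413).

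**Figure D4:**
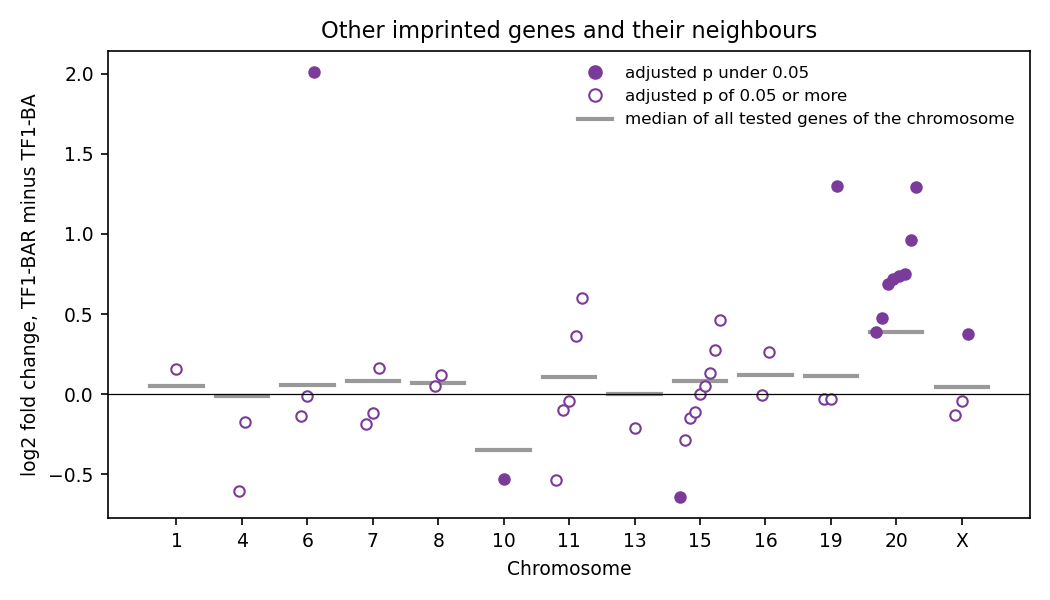
Log2 fold change (TF1-BAR minus TF1-BA, limma) of the 43 tested genes of the imprinted lists by chromosome, filled where the adjusted p was under 0.05, with a grey bar for the median of all tested genes of that chromosome. All 8 genes of chromosome 20 are filled and their median is 0.73, while LIN28B (2.01) and ZNF331 (1.30) stand apart on chromosomes 6 and 19.

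Among the factors that set, read and keep methylation imprints some were higher and some lower. Of 31 names 30 had a row and 26 were tested, of which 5 were higher and 5 lower by adjusted p, or 10 of 26 against 26.9% of all genes, with a median of 0.09. By limma voom 15 of 26 had an adjusted p under 0.05, against 40.4%. TET1, which oxidises methylated cytosine, was past both thresholds, at 3.49 and 3.14 FPKM in TF1-BA and 1.54 and 1.24 FPKM in TF1-BAR libraries, with a log2 fold change of -1.01 (limma, adjusted p = 0.0103). RAD21 and SMC3 of the cohesin ring fell by 0.59 and by 0.53 on the log2 scale (limma, adjusted p = 0.0290 and 0.0139). TET1 and SMC3 lie on chromosome 10, whose tested genes had a median of -0.35, the lowest of the autosomes. With the median of the own chromosome taken off, TET1 was at -0.67 (limma, adjusted p = 0.0256), under the fold threshold, and SMC3 at -0.19 (limma, adjusted p = 0.155). SETD2, the histone methyltransferase that the study is about, went from 9.28 ± 0.240 to 12.3 ± 0.186 FPKM (SD, n = 2), a log2 fold change of 0.38 (limma, adjusted p = 0.0213). This is RNA alone. In the paper SETD2 protein was lower in TF1-BAR than in TF1-BA cells by Western blot, and its mRNA was unchanged by qRT-PCR. The cause of this difference was not tested.

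The insulator protein and the copying enzyme of methylation did not pass the test. CTCF had a log2 fold change of 0.06 (limma, adjusted p = 0.599), with 10.9 and 10.3 FPKM in TF1-BA and 10.7 and 11.5 FPKM in TF1-BAR libraries. DNMT1, which copies methylation after replication, had one of -0.03 (limma, adjusted p = 0.717), with 52.0 and 52.4 against 51.1 and 51.1 FPKM. ZFP57 was near 0, with 0, 1, 3 and 1 fragments.

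Genes of the IGF2 axis, the ligands, receptors, binding proteins and mRNA-binding proteins around IGF2, held 19 rows of 23 names and 11 tested genes. By adjusted p 3 were higher and 2 lower, or 5 of 11 against 26.9% of all genes, with a median of 0.13, and by limma voom 7 of 13 passed, against 40.4%. LIN28B stands in this list too and alone passed both thresholds by limma on FPKM. IGF1R, the receptor through which IGF2 signals, went from 3.27 ± 0.0710 to 4.21 ± 0.0749 FPKM (SD, n = 2), a log2 fold change of 0.32 (limma, adjusted p = 0.0489). IGF1R was at 0.24 with the median of chromosome 15 taken off (limma, adjusted p = 0.105). IGF2R, which takes IGF2 up for breakdown, was at 10.9 and 11.7 against 9.53 and 11.1 FPKM, with a change of -0.13 (limma, adjusted p = 0.354). IGF2BP1, which binds IGF2 mRNA, rose by 0.64 on the log2 scale (limma, adjusted p = 0.0116), and LIN28A, the relative of LIN28B, fell by 0.96 (limma, adjusted p = 0.0272). LIN28A was at 0.9957 and 1.37 FPKM in TF1-BA and 0.364 and 0.357 FPKM in TF1-BAR libraries, levels near the pseudocount of 0.5 FPKM, and by limma voom its change was -1.66 (adjusted p = 0.000424), past both thresholds.

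Among the relatives and partners of CDKN1C in the control of the cell cycle all 16 were tested, with 3 higher and 5 lower by adjusted p, or 8 of 16 against 26.9% of all genes, and a median of -0.18. By limma voom 10 of 16 passed, against 40.4%. CDKN2B, an inhibitor of the kinases CDK4 and CDK6, passed both thresholds, at 23.2 and 27.3 FPKM in TF1-BA and 9.86 and 9.99 FPKM in TF1-BAR libraries, with a log2 fold change of -1.30 (limma, adjusted p = 0.00430). CDKN1B, of the same family as CDKN1C, was at 19.8 and 20.04 FPKM in TF1-BA and 14.5 and 14.4 FPKM in TF1-BAR libraries, with a log2 fold change of -0.45 (limma, adjusted p = 0.0122). CDKN2D, of the family of CDKN2B, rose by 0.70 on the log2 scale, and CCNE2, a cyclin that activates CDK2, fell by 0.67 (limma, adjusted p = 0.0221 and 0.0399). Among relatives of the other genes 23 of 26 names had a row and 17 were tested, with 2 higher and 3 lower by adjusted p, or 5 of 17 against 26.9%, and a median of -0.0049, and by limma voom 8 of 18 passed, against 40.4%. SGCZ, another sarcoglycan, was at 2.08 and 2.14 FPKM in TF1-BA and 0.142 and 0.195 FPKM in TF1-BAR libraries, a log2 fold change of -1.97 (limma, adjusted p = 0.00506). The pseudocount exceeds the TF1-BAR level of SGCZ, and by limma voom the change was -3.55 (adjusted p = 8.20e-06). SNRPA, a splicing protein, fell by 0.62 and PLAGL2, of the family of PLAGL1 and on chromosome 20, rose by 0.62 on the log2 scale (limma, adjusted p = 0.00705 and 0.0113). PLAGL2 was at 0.23 with the median of chromosome 20 taken off (limma, adjusted p = 0.113).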

How the data were processed

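The authors sequenced RNA of both lines as paired-end reads, 2 libraries a line, mapped to GRCh38 with TopHat2 2.0.13 and quantified it with Cufflinks and Cuffdiff 2.2.0, and the paper names DESeq2 for its own test. The annotation release is not given in the sources used here. The values the authors deposited are FPKM per library, not log transformed, for 32673 genes. 26 symbols turned into dates were restored from their identifiers.

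The fit was limma 3.58.1 in R 4.3.3 (lmFit, then eBayes with trend) on log2(FPKM + 0.5) over genes whose mean FPKM reached 0.5, with Benjamini-Hochberg adjustment and the thresholds of the paper's methods. Fragments were recovered from the FPKM by finding the library sizes at which the values become whole numbers. Of the 30853 genes above 0, 14113 were whole at the GENCODE 44 exon length and 16740 at the smallest fitted length, which can understate a gene's fragments (CDKN1C and SGCE). With wrong library sizes 0 of 200 genes were whole, and with those found 199. The 200 were drawn from well-covered genes already made whole with the found sizes, so the 199 was largely fixed beforehand. The check does not cover sparse rows such as SGCE, IGF2 and PEG10. Counts from these fragments, a floor of 3 fragments and exact intervals of ratios cover counting error only. The limma fit on log2(FPKM + 0.5) was tested on simulated data by adjusted p alone, and the limma voom fit was not.

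Libraries of the same number deviated from their line's mean with a correlation of 0.0646 over 15519 genes, so the numbers were not taken as pairs. An exact permutation test of 2 against 2 libraries cannot go below 0.333, so none was used. Genes are said to rise or fall where the adjusted p was under 0.05. The genes and lists were chosen with earlier results of these data known. Besides the 10 genes, those named are the genes past both thresholds in each list, filled up to 3 a list with the largest log2 fold changes at an adjusted p under 0.05, and 11 fixed names such as SETD2, CTCF and KCNQ1. Further names (SLC22A18, HYMAI, ZFP57, CDKN1B, MKRN3, TUBGCP5 and those of chromosome 20) were chosen after their values were seen.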

Additional observations from a re-analysis of the deposited data

How the results depend on the processing

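The count of genes past both thresholds over the whole table, 737, was 487 with a pseudocount of 1 FPKM, 1517 by limma voom on recovered fragments, 4167 by adjusted p alone and 42 to 783 on leaving out 1 library, lowest without TF1-BA replicate 2, where the lone library of a line is assumed to vary like the other line's. Among the 10 genes, 0 by the main test, it was 1 with a pseudocount of 0.1 FPKM, 1 with TPM and 1 by limma voom, each time H19, and 3 by adjusted p alone. H19 stayed between 0.815 and 1.07 in 16 alternatives and had an adjusted p under 0.05 in 14 of them, with 0.89 to 0.96 on leaving out 1 library. MEST and PLAGL1 kept their direction in all 16 and an adjusted p under 0.05 in 10 each. MEST was at -0.42 with no filter (limma, adjusted p = 0.0937) and without the trend (limma, adjusted p = 0.0671), and at -0.51 to -0.32 on leaving out 1 library. PLAGL1 was at 0.35 with no filter (limma, adjusted p = 0.0641) and without the trend (limma, adjusted p = 0.0607), and at 0.29 to 0.41 on leaving out 1 library. CDKN1C stayed between 0.09 and 0.42 with an adjusted p of 0.159 or more. GRB10 turned sign with TPM (0.041) and without TF1-BA replicate 1 (0.017), and was -0.071 to 0.017 on leaving out 1 library. A replicate block gave 755 genes and no call of the 10 genes changed, with an adjusted p of 0.0140 for H19, 0.0223 for MEST and 0.0300 for PLAGL1 (limma). Quantile normalization gave 359 higher and 338 lower calls, against 474 and 263, and TPM gave 741 and 307. Of the 40 list genes with an adjusted p under 0.05, 26 kept it with the median of their own chromosome taken off, 13 with no filter and 39 by limma voom. At this depth IGF2 and PEG10 could not be compared, SGCE rests on few fragments (1, 0, 10 and 3), and the cause of each difference between settings was not tested.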
